A study of Mus musculus with 36 samples.

Results

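The data are 4 RNA-seq libraries of cardiac fibroblasts taken 28 days after radiation, of 36 libraries in all, and they were chosen by cell type and time in the sample titles. The groups were RT 12Gy x 1 (2 libraries) and Sham control (2 libraries). All came from WT C57Bl6J mice whose hearts were exposed in a small-animal microirradiator, to 1 fraction of 12 Gy or to sham treatment. The other 32 libraries are fibroblasts, endothelial cells and myocytes at 6 hours, 7 days and 28 days. The labels do not say how the cells were isolated, at what hour, from animals of which age or sex, or whether the replicate libraries came from separate animals, so p-values here measure only the spread between libraries, which may be technical. The irradiated libraries held 28277761 and 28112950 reads on the transcripts kept, 1 per gene name, and the sham libraries 25626472 and 30936001 reads, with 16998 to 17480 gene names detected.

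Cardiac fibroblasts make and maintain the interstitial matrix of the heart, and in an unstressed adult heart they divide little. Ionising radiation breaks DNA, and the break response activates the transcription factor p53, whose targets halt the cell cycle or start cell death. DNA or RNA in the cytosol can be read by sensor proteins that lead to interferon, and interferon receptors then act through transcription factors that include STAT2 and IRF9 on a shared element of the promoters of interferon-stimulated genes. Fibroblasts of irradiated tissue are known for late matrix deposition, which is the usual meaning of radiation fibrosis.

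The label of the cells held. The 18 fibroblast markers summed to 83285 and 83085 CPM (reads of a gene scaled to a common library size) in the irradiated libraries and 93437 and 89595 CPM in the sham libraries, against 3920 to 7847 CPM in the 6 sham endothelial libraries. The 20 cardiomyocyte markers summed to 768 and 840.2 CPM after RT and 753.5 and 811.1 CPM after sham, where sham myocyte libraries had at least 131508 CPM. The 20 endothelial markers summed to 1424 and 1503 CPM after RT and 1346 and 1446 CPM after sham, where sham endothelial libraries had at least 28737 CPM. The 17 macrophage and monocyte markers in the files summed to 31.7 and 32.9 CPM after RT and 29.8 and 32.4 CPM after sham, with Fcgr1 at 0 in all 4 libraries. By the edgeR test described next, no tested cardiomyocyte (20), macrophage (10), mesothelial (11), valve (10), lymphatic (6), platelet (4), mast cell (3), adipocyte (2), T cell (2) or B cell (1) marker passed. At an unadjusted p under 0.05 there were 1 macrophage, 2 mesothelial, 3 valve, 1 lymphatic and 1 adipocyte marker, and DESeq2 called 1 valve marker and none of the others. The 11 mesothelial markers summed to 2030 and 2049 CPM after RT and 1641 and 1784 CPM after sham. All 6 sham fibroblast libraries held 1167 to 2606 CPM of them. The 10 valve markers summed to 984.6 and 1328 CPM after RT and 936 and 937.7 CPM after sham. Both irradiated libraries were above both sham libraries in 10 mesothelial and 7 valve markers, and in 22.2% of all genes tested. Single markers of other cells did pass. Of 20 endothelial markers Tek, the angiopoietin receptor, fell to 202 and 223 CPM after RT, against 273 and 285 CPM after sham (log2 fold change -0.39, SE 0.07, adjusted p = 0.00523), a call lost without sham library 2 or irradiated library 1. Of 13 pericyte and smooth muscle markers, the potassium channel subunits Abcc9 and Kcnj8 fell, with log2 fold changes of -0.42 (adjusted p = 0.00663) and -0.45 (adjusted p = 0.0247), and both calls were lost without sham library 2 and that of Kcnj8 also without sham library 1 or irradiated library 2. That list summed to 1822 and 1683 CPM after RT and 1713 and 1739 CPM after sham. Of 9 Schwann cell and glial markers Ngfr, the low-affinity neurotrophin receptor, rose to 13 and 12.3 CPM after RT, against 6.71 and 5.39 CPM after sham (log2 fold change 1.07, SE 0.15, adjusted p = 0.000563), and its call held without any single library of the 4. Its list summed to 116.5 and 104.2 CPM after RT and 103.6 and 105.5 CPM after sham. The part of these cells in other changes was not tested. Erythroid genes also differed: the 7 erythroid markers summed to 235 and 517.7 CPM after RT and 1698 and 1104 CPM after sham, where all 6 sham fibroblast libraries ranged between 192.5 and 1698 CPM. The top of that range was sham library 1 of 28 days itself. Hemoglobin transcripts took 0.0348% and 0.0744% of reads in the irradiated libraries and 0.246% and 0.161% in the sham libraries.

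**Figure D1:**
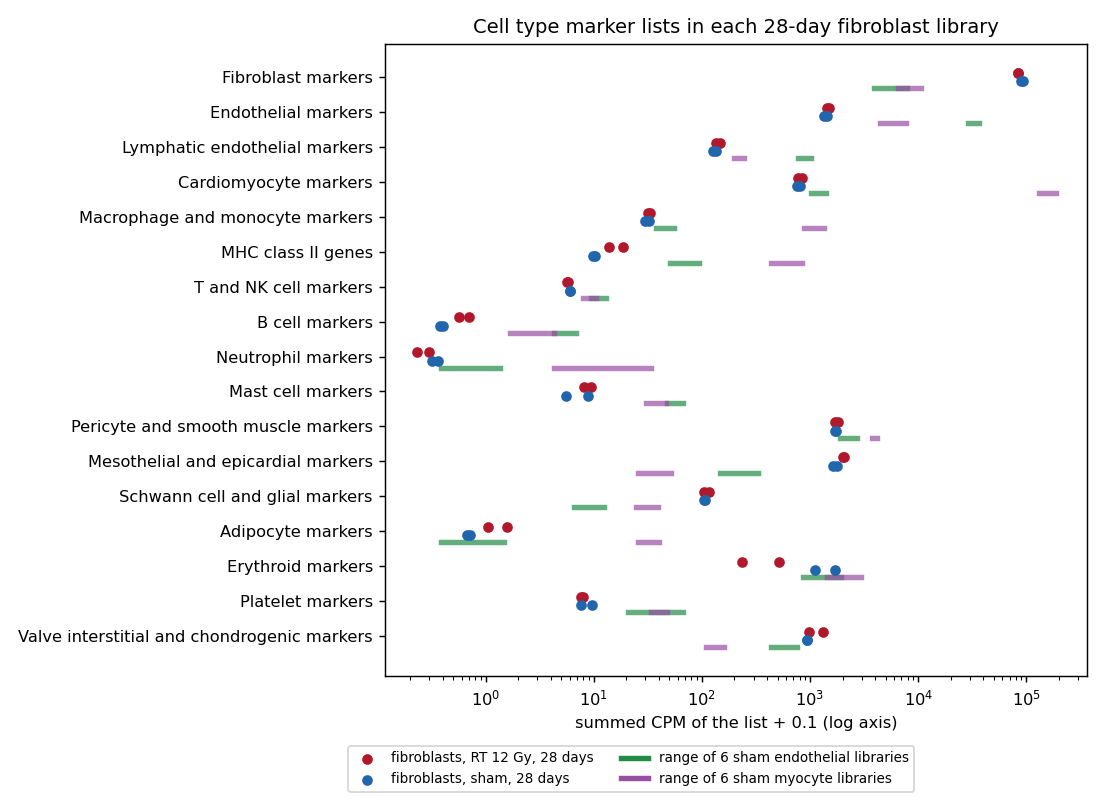
Summed level of each marker list (CPM + 0.1, log axis) in the 4 fibroblast libraries of 28 days, irradiated above sham within a row, with bars for the range of 6 sham endothelial and 6 sham myocyte libraries. Fibroblast markers lie at 83085 to 93437 CPM in all 4 libraries, and among the lists over 100 CPM the erythroid list separates the groups most widely, with the irradiated libraries lower.

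The comparison asks what 12 Gy had left changed in these cells after 28 days. Genes were tested with edgeR's quasi-likelihood test on read counts, and a gene was called at a Benjamini-Hochberg adjusted p under 0.05; every adjusted p below is from that test unless another is named. Of 14998 genes tested, 494 (3.29%) were called, 372 higher (2.48%) and 122 lower (0.813%) after RT. The higher genes had a median log2 fold change of 0.78, or 1.71-fold, and 153 of them exceeded 1. The lower genes had a median of -0.38 and only 6 lay below -1, so there were more higher genes, and their changes were larger. Those 6 included the beta globins Hbb-bs and Hbb-bt and the names Hbb-b1 and Hbb-b2, which carried the same counts. Such names, with H2-Q8 and H2-Q9 among the higher ones, were each counted as a gene. The median over all genes tested was -0.0049. In all 494 genes the irradiated and sham libraries did not overlap, which was also true of 22.2% (RT higher) and 21.9% (RT lower) of all genes tested.

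Of the 372 higher genes, 64 belonged to the interferon and MHC class I lists described below, 33 to the lists of mitosis, replication and repair, and 25 to the p53 targets. None of the 122 lower genes belonged to any of these. Over all the lists used here, 154 of the 372 higher and 24 of the 122 lower genes were members. The lists were chosen with earlier results of these data known, and those of GTPases and sensors after values were seen. These counts therefore describe the calls and test nothing. The count of calls was 416 without irradiated library 1, 331 without irradiated library 2, 244 without sham library 1, 229 without sham library 2, and 188 (178 higher, 10 lower) in a fit whose spread was shared with all 36 libraries. On log2(RPKM + 1) values, limma called 381 genes higher and 60 lower.

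**Figure D2:**
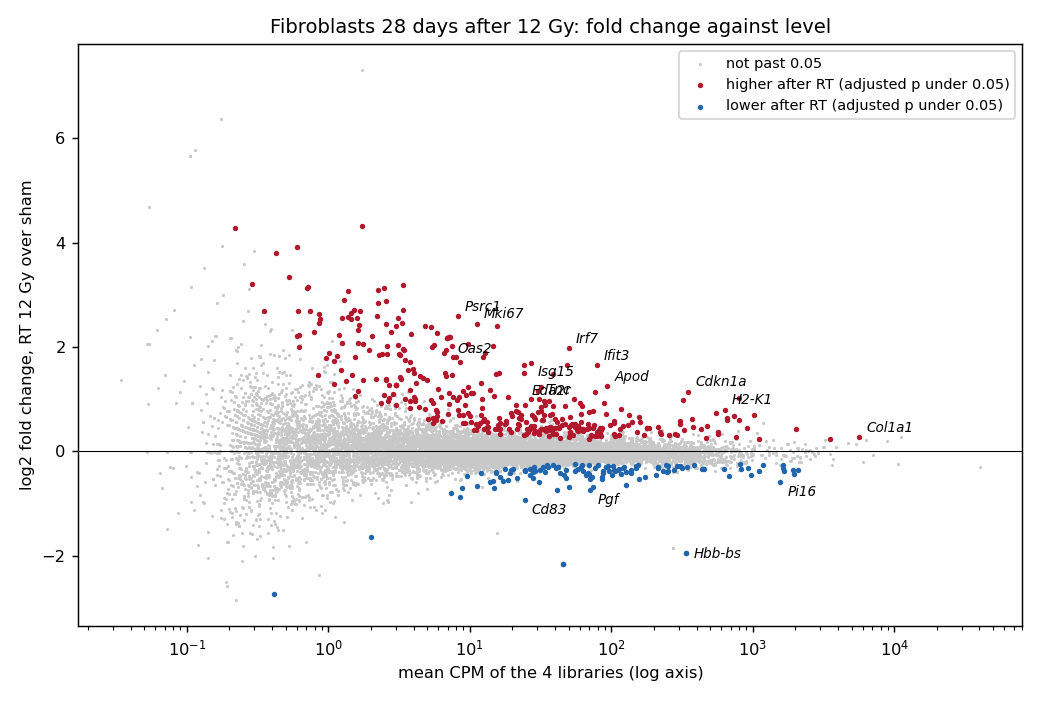
Log2 fold change, RT 12 Gy over sham, against the mean CPM of the 4 libraries (log axis) for each gene tested; red and blue points are the 372 higher and 122 lower genes. Red points outnumber blue ones, the largest changes are those of genes at low levels, and among called genes over 100 CPM the hemoglobin gene Hbb-bs lies lowest.

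Nearly all interferon-stimulated genes tested were higher after RT. Of 40 tested, 39 rose and none fell (median log2 fold change 0.89). The member that did not pass was Ifi27l2a, at 294 and 223 CPM after RT and 207 and 184 CPM after sham (adjusted p = 0.0889). The list's transcripts summed to 2259 and 2037 CPM in the irradiated libraries and 1217 and 1306 CPM in the sham libraries. Without sham library 1, 31 members were called, and 21 in the fit of all 36 libraries.

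Irf7 (chr7:141263183-141266499), the transcription factor that amplifies the interferon response, had the smallest p of the 14998 genes. It had 81 and 79 CPM after RT, against 19.9 and 20.7 CPM after sham (log2 fold change 1.98, SE 0.1, adjusted p = 1.57e-07). The level after RT was 3.94-fold that after sham, and the libraries within each pair differed little. Stat2, which carries the signal from the interferon receptor to the nucleus, changed less. It had a log2 fold change of 0.71 (adjusted p = 0.000671). Of the cytosolic sensors, Ifih1 (MDA5) had 61.9 and 67.7 CPM after RT, against 45.2 and 48 CPM after sham (log2 fold change 0.48), and Ddx58 (RIG-I) 75.5 and 78.8 CPM, against 54.9 and 60.0 CPM (log2 fold change 0.43). Zbp1, a sensor of Z-form nucleic acid, had 12.3 and 11.7 CPM after RT and 3.39 and 2.56 CPM after sham (log2 fold change 2.02, SE 0.17, adjusted p = 6.63e-06). Adar, which edits double-stranded RNA, reached 62.8 and 61 CPM after RT, against 42 and 43.4 CPM after sham (log2 fold change 0.53, SE 0.06, adjusted p = 8.65e-05). In none of these genes did the groups overlap.

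A wider list of nucleic acid sensing and interferon signalling genes was added after values were seen. Of 32 tested, 11 rose and none fell, with a median of 0.1. They included Irf7, Zbp1, Dhx58, Ifi204, Stat2, Eif2ak2, Adar, Ifih1, Irf9 and Ddx58. The kinases Jak1 and Tyk2, the receptor chains Ifnar1 and Ifnar2, the adaptor Mavs, the DNA sensor cGAS (Mb21d1) and its partner STING (Tmem173) did not pass, with log2 fold changes between -0.16 (Mb21d1) and 0.06 (Tmem173). Of 10 interferon ligand genes, only Ifnb1 had a read, 1 in irradiated library 1, and the other 9 had none in the 4 libraries. A count of 0 allows a true level of up to 3 reads per library, by counting error alone.

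Among the antiviral effectors, Isg15 (chr4:156199424-156200818), a ubiquitin-like protein attached to other proteins, had 45.9 and 36.5 CPM after RT, against 11.4 and 14 CPM after sham (log2 fold change 1.69, SE 0.18, adjusted p = 7.04e-05). Usp18, the protease that removes ISG15 and damps receptor signalling, had 25.7 and 21.8 CPM after RT, against 8.02 and 8.77 CPM after sham (log2 fold change 1.5, SE 0.12, adjusted p = 3.51e-06). Bst2 (tetherin), which holds budding virus at the membrane, had 111 and 101 CPM after RT, against 52.1 and 44.8 CPM after sham (log2 fold change 1.13, SE 0.08, adjusted p = 1.59e-06). The modifier and the protease that removes it were thus both higher. Oas1a, which makes the messenger that activates RNase L, had 10.1 and 9.21 CPM after RT, against 2.04 and 1.98 CPM after sham (log2 fold change 2.27, SE 0.24). Oas2, of the same family, had 12.5 and 11.2 CPM after RT, against 2.63 and 2.56 CPM after sham (log2 fold change 2.19, SE 0.22). Rsad2 (viperin), an antiviral enzyme, had 23.8 and 23.5 CPM after RT and 3.91 and 7.53 CPM after sham, and its sham libraries differed from each other by more than its irradiated ones did (log2 fold change 2.03, SE 0.3, adjusted p = 0.00115). Ifit1 and Ifit3, which bind foreign RNA, had log2 fold changes of 1.65 (SE 0.18) and 1.65 (SE 0.2). Cxcl10, a chemokine for T cells induced by interferon, had 23 and 17.4 CPM after RT, against 6.35 and 4.64 CPM after sham (log2 fold change 1.89, SE 0.2, adjusted p = 6.56e-05). Oas3 rested on 43 and 21 reads after RT and 1 and 3 reads after sham, so no fold is given for it.

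The promoters of these genes are shown because the members moved together and interferon signalling acts through a known element. Each line gives the 160 bases before the RefSeq start (build GRCm38.p6), read 5′ to 3′ on the gene's strand, with matches to the interferon-stimulated response element in capitals. The letters searched were GAAA, any pair of bases and GAAA again, on both strands, so a match on the opposite strand reads as its reverse complement, and matches may overlap each other. The 6 shown were picked by smallest p from called members of the interferon-stimulated and MHC class I lists. Only genes with a single RefSeq start in the promoter table and a match in this window could be picked. They are Bst2 (chr8:71537473-71537632, minus strand), Oas1a (chr5:120907526-120907685, minus strand), Isg15 (chr4:156200819-156200978, minus strand), Ifit1 (chr19:34640729-34640888, plus strand), H2-T23 (chr17:36032702-36032861, minus strand) and Ifit3 (chr19:34583369-34583528, plus strand).
Bst2: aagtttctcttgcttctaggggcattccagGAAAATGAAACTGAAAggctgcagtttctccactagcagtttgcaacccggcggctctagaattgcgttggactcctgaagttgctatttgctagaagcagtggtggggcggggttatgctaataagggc
Oas1a: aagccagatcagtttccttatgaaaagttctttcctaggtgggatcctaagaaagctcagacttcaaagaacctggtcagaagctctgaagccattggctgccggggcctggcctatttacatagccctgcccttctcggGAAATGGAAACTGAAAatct
Isg15: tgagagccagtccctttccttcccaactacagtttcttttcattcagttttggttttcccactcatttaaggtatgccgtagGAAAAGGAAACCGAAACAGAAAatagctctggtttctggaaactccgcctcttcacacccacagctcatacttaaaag
Ifit1: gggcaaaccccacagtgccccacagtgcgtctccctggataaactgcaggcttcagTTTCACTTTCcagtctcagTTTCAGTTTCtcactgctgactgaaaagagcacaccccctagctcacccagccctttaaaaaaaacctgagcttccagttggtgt
H2-T23: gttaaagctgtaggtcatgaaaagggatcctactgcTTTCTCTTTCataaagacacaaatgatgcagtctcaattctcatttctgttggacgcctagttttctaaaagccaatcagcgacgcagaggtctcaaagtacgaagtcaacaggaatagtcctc
Ifit3: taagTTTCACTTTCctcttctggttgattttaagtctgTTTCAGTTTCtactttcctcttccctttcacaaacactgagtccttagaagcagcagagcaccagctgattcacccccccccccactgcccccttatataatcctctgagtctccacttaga
Matches began between 14 and 156 bases before the start, and those of Bst2, Oas1a and Isg15 ran into each other. In the 250 bases before the start, 16 of 28 called interferon-stimulated genes with a promoter in the table (57.1%) held a match, against 3.09% of the 11020 tested genes whose promoter is there. Of 11 called MHC class I genes with a promoter there, 3 (27.3%) held a match. Among all genes called higher the share was 13.4% of 262, and among those called lower 3.7% of 81. The promoter of Irf7 held no match to these letters in this window. Other motifs were searched in the same 250 bases. The AP-1 site (TGA, any base, TCA) was in 9 of the 28 interferon-stimulated genes (32.1%), against 5.56% of all. The CCAAT box was in 11 of the 11 MHC class I genes (100%), against 40% of all. Some motifs were rarer, as the xenobiotic response element (GCGTG), in 21.4% of the 28, against 48.7% of all.

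Antigen presentation genes were higher too. Of 18 genes of MHC class I presentation, the pathway that shows peptides from inside the cell to CD8 T cells, 12 rose and none fell, with a median log2 fold change of 0.57. H2-K1, a classical class I heavy chain, had 846 and 766 CPM after RT, against 470.3 and 456 CPM after sham (log2 fold change 0.8, SE 0.08, adjusted p = 3.11e-05). H2-D1, the other classical heavy chain, had 1336 and 1170 CPM after RT, against 803 and 738 CPM after sham (log2 fold change 0.7, SE 0.08, adjusted p = 7.19e-05). B2m, the light chain they share, had 1018 and 895 CPM after RT and 639 and 625 CPM after sham (log2 fold change 0.6, SE 0.07, adjusted p = 0.000147). The groups did not overlap for any of these genes. Tap1, a subunit of the peptide transporter, had 53.2 and 46.8 CPM after RT, against 26.3 and 28.2 CPM after sham (log2 fold change 0.87, SE 0.08, adjusted p = 1.38e-05). Its partner Tap2 had a log2 fold change of 0.2 and did not pass (adjusted p = 0.137). Nlrc5, the transactivator of class I genes, had 4.87 and 5.02 CPM after RT, against 1.24 and 1.46 CPM after sham (log2 fold change 1.86, SE 0.34, adjusted p = 0.00503).

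H2-Q4, a nonclassical class I chain, had 159.6 and 138 CPM after RT, against 88.6 and 81.9 CPM after sham (log2 fold change 0.81, SE 0.08, adjusted p = 3.94e-05). H2-Q6 had 13.5 and 9.21 CPM after RT, against 2.71 and 2.34 CPM after sham (log2 fold change 2.17), and H2-Q7 13.9 and 9.57 CPM, against 3.03 and 2.14 CPM (log2 fold change 2.19). H2-Q8 carried the same reads as H2-Q6 in each of the 4 libraries, and H2-Q9 the same as H2-Q7, so these near-identical genes cannot be told apart by the counting. The calls of H2-Q6 and H2-Q7 were lost without sham library 2. The proteasome activators Psme1 and Psme2 and the peptide trimmer Erap1 did not pass, with log2 fold changes of 0.12, 0.14 and 0.02. The class I count was 7 without sham library 2, 8 without sham library 1 and 4 in the fit of all 36 libraries. MHC class II genes, a mark of professional antigen-presenting cells, were low, and none of 7 tested passed with edgeR, 2 were under an unadjusted p of 0.05 and DESeq2 called 1. Their summed level was 18.4 and 13.8 CPM after RT and 9.79 and 10.2 CPM after sham.

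Of 18 interferon-inducible GTPases, a list added after the values were seen, 16 rose and none fell, with a median of 0.9. These proteins of the guanylate-binding (Gbp) and immunity-related (Irg) families attack the membranes of compartments that hold pathogens. Gbp3 had 74.9 and 71.1 CPM after RT, against 33.5 and 39.2 CPM after sham (log2 fold change 1.0, SE 0.1, adjusted p = 4.05e-05). Gbp9 had 25.6 and 24.8 CPM after RT, against 12 and 12.4 CPM after sham (log2 fold change 1.04, SE 0.1, adjusted p = 2.29e-05). Iigp1 had 64.4 and 49.9 CPM after RT, against 18 and 22.7 CPM after sham (log2 fold change 1.48, SE 0.15, adjusted p = 4.88e-05). The irradiated libraries were at 2.0 to 2.06 times the sham level in Gbp3 and Gbp9, and the groups overlapped in none of the 3. Gbp8 and Tgtp1 did not pass, with log2 fold changes of -0.17 and 0.38. A match to the interferon element was held by 9 of the 10 called GTPases with a promoter in the table (90%). The count was 9 without sham library 1 and 5 in the fit of all 36 libraries.

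Genes outside the lists moved the same way, though they are named here with their values known. Lgals3bp, a secreted glycoprotein induced by interferon, had 430.3 and 416 CPM after RT and 219.9 and 208 CPM after sham (log2 fold change 0.99, SE 0.07, adjusted p = 1.4e-06). Ifitm3, a membrane protein that blocks virus entry, had 522 and 475 CPM after RT, against 367 and 369.8 CPM after sham (log2 fold change 0.44). Its relative Ifitm1 went the other way, with 7.53 and 5.95 CPM after RT and 11.4 and 10.5 CPM after sham (log2 fold change -0.69, SE 0.18, adjusted p = 0.0465), a call that was lost when any of the 4 libraries was left out.

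The second group was mitosis. Of 30 genes of mitosis and cytokinesis, 28 rose and none fell, the list's median log2 fold change being 1.92. In all 30 both irradiated libraries were above both sham libraries, as they were in 22.2% of all genes tested. Those that did not pass were Smc2 and Aurka, with log2 fold changes of 0.29 and 1.0. The levels were low throughout: the 30 transcripts together summed to 229.8 and 234.6 CPM after RT and 76.9 and 84.5 CPM after sham. The count was 20 without sham library 2, and only 7 when genes under a mean of 5 CPM were removed before the test, since most members lie below that level.

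Mki67 (chr7:135689784-135716450), the proliferation antigen that coats mitotic chromosomes, had 16.1 and 21.6 CPM after RT, against 3.43 and 3.47 CPM after sham (log2 fold change 2.45, SE 0.21, adjusted p = 1.03e-05). Top2a (chr11:98992947-99024199), which untangles chromosomes before they separate, had 25.7 and 26.7 CPM after RT, against 4.51 and 5.39 CPM after sham (log2 fold change 2.4, SE 0.23, adjusted p = 2.47e-05). Cdk1, the kinase that starts mitosis, had 4.97 and 4.05 CPM after RT, against 0.639 and 0.584 CPM after sham (log2 fold change 2.88, SE 0.3, adjusted p = 4.56e-05). All of these were over 5-fold higher after RT, from sham levels under 6 CPM. Ccnb1, the cyclin partner of Cdk1, had 6.41 and 5.66 CPM after RT, against 0.559 and 0.747 CPM after sham (log2 fold change 3.19, SE 0.28, adjusted p = 1.03e-05), and the earlier cyclin Ccna2 had 14.4 and 12.7 CPM, against 5.71 and 5.81 CPM (log2 fold change 1.23, SE 0.12, adjusted p = 2.59e-05). Cenpf, a kinetochore protein, had 8.05 and 9.82 CPM after RT and 1.28 and 2.11 CPM after sham (log2 fold change 2.38, SE 0.28). Prc1, which bundles the central spindle, had 15.7 and 15.7 CPM after RT, against 3.47 and 4.03 CPM after sham (log2 fold change 2.06, SE 0.2). The mitotic kinases Aurkb and Plk1 had log2 fold changes of 2.69 and 2.59.

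The replication genes did not follow to the same extent. Of 25 genes of DNA replication and S phase, 3 rose and none fell, with a median of 0.2. Uhrf1, which maintains DNA methylation behind the replication fork, had 8.12 and 6.24 CPM after RT, against 2.52 and 2.99 CPM after sham (log2 fold change 1.38, SE 0.22, adjusted p = 0.00172). Mcm5, a subunit of the replicative helicase, had 10.4 and 10.7 CPM after RT, against 5.79 and 6.3 CPM after sham (log2 fold change 0.8, SE 0.14, adjusted p = 0.00428), and Mcm2, another subunit, 10.6 and 11.4 CPM, against 7.15 and 7.89 CPM (log2 fold change 0.54, SE 0.11, adjusted p = 0.00942). Pcna, the sliding clamp of the polymerase, had 76.9 and 64.5 CPM after RT and 69.9 and 67.9 CPM after sham, and its groups overlapped (adjusted p = 0.877). Of 31 genes of DNA damage sensing and repair, 2 rose, Brca1 (log2 fold change 1.46, SE 0.37, adjusted p = 0.0453) and Msh6 (log2 fold change 0.32, SE 0.08, adjusted p = 0.0472), and both calls were lost when either sham library was left out. The replication count was 1 without sham library 1. A test of the difference between the mitosis and replication genes was not made.

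The promoters of 3 mitotic genes are shown for the elements known from late cell cycle genes. Each line again gives 160 bases before the RefSeq start (GRCm38.p6), on the gene's strand, and capitals mark TTTGAA, the cell cycle homology region, and CCAAT, the box bound by NF-Y, on either strand. The motifs do not overlap in these windows. They are Mki67 (chr7:135716380-135716539, minus strand), Top2a (chr11:99024190-99024349, minus strand) and Cdk1 (chr10:69352913-69353072, minus strand). For Mki67 and Top2a the start in that table lies inside the gene span given above.
Mki67: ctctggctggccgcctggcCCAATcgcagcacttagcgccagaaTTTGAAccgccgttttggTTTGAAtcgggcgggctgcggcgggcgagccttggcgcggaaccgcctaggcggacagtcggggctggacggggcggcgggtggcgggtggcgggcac
Top2a: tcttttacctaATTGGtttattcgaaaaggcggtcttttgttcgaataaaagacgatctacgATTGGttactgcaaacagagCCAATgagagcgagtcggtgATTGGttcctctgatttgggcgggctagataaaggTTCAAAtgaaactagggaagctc
Cdk1: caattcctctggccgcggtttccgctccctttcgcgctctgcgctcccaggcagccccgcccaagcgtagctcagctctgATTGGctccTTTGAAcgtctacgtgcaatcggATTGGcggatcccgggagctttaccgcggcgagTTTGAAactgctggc
In the 250 bases before the start, TTTGAA was found in 10 of 23 called mitosis genes with a promoter in the table (43.5%), against 12.7% of the 11020 tested genes. CCAAT was found in 19 of the 23 (82.6%), against 40% of all. Both are short and common, and a match says only that the letters are there.

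The p53 targets were higher as well. Of 39 tested, 25 rose and none fell (median log2 fold change 0.66). Cdkn1a (chr17:29090979-29100722), the p21 inhibitor of cyclin-dependent kinases, had 491 and 475 CPM after RT, against 236 and 201 CPM after sham (log2 fold change 1.14, SE 0.08, adjusted p = 1.4e-06). Mdm2, the ligase that degrades p53, had 61.3 and 70.2 CPM after RT, against 46.2 and 45 CPM after sham (log2 fold change 0.53, SE 0.09, adjusted p = 0.00321), though without sham library 2 the adjusted p was 0.055. Ccng1 (cyclin G1) had 192 and 194 CPM after RT, against 118 and 126 CPM after sham (log2 fold change 0.66, SE 0.08, adjusted p = 0.000107). The groups did not overlap for these genes, and Cdkn1a was 2.21-fold its sham level in the same libraries in which mitotic genes were higher.

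Sesn2, a stress-induced inhibitor of growth signalling, had 21.4 and 23.9 CPM after RT, against 8.22 and 7.99 CPM after sham (log2 fold change 1.48, SE 0.09, adjusted p = 4.18e-07). Aen, a nuclease of apoptosis, had 35.8 and 36.9 CPM after RT, against 17.9 and 18.1 CPM after sham (log2 fold change 1.01, SE 0.07, adjusted p = 1.4e-06). Eda2r, a receptor of the TNF receptor family, had 34.5 and 37 CPM after RT, against 11.6 and 13.6 CPM after sham (log2 fold change 1.5, SE 0.11). Gdf15, a secreted stress cytokine, had 17.5 and 16.6 CPM after RT and 7.55 and 6.2 CPM after sham (log2 fold change 1.32, SE 0.17, adjusted p = 0.000303). The 3 largest changes in the list were those of Psrc1, Ckap2 and Gtse1, which also work on the mitotic spindle; their log2 fold changes were 2.59, 2.41 and 2.25. Psrc1 had 15.1 and 13.1 CPM after RT, against 2.63 and 2.08 CPM after sham. Ddb2, Xpc and Rrm2b did not pass and had log2 fold changes of -0.16, -0.08 and -0.23. Outside the list, Ptprv, a p53-induced phosphatase named here after its value was seen, had the largest log2 fold change of all called genes, with 3.12 and 3.51 CPM after RT and 0.24 and 0.0974 CPM after sham (log2 fold change 4.32, SE 0.34, adjusted p = 3.8e-06).

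Of 20 genes of senescence and cell cycle inhibition, 4 rose: Cdkn1a, Lmnb1, Bcl2l1 and Ccnd1. Lmnb1, the lamin that senescent cells are known to lose, was higher, with 20.7 and 18.3 CPM after RT and 12.8 and 12.3 CPM after sham (log2 fold change 0.64, SE 0.11, adjusted p = 0.00274). Cdkn2a, the p16 and p19ARF locus, was barely detected, with 10 and 12 reads after RT and 3 and 4 reads after sham (adjusted p = 0.208). The survival gene Bcl2l1 had 81.5 and 81 CPM after RT and 58 and 55 CPM after sham (log2 fold change 0.53, SE 0.1, adjusted p = 0.00722). The count of 4 was 2 without sham library 1 and 1 without sham library 2.

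**Figure D3:**
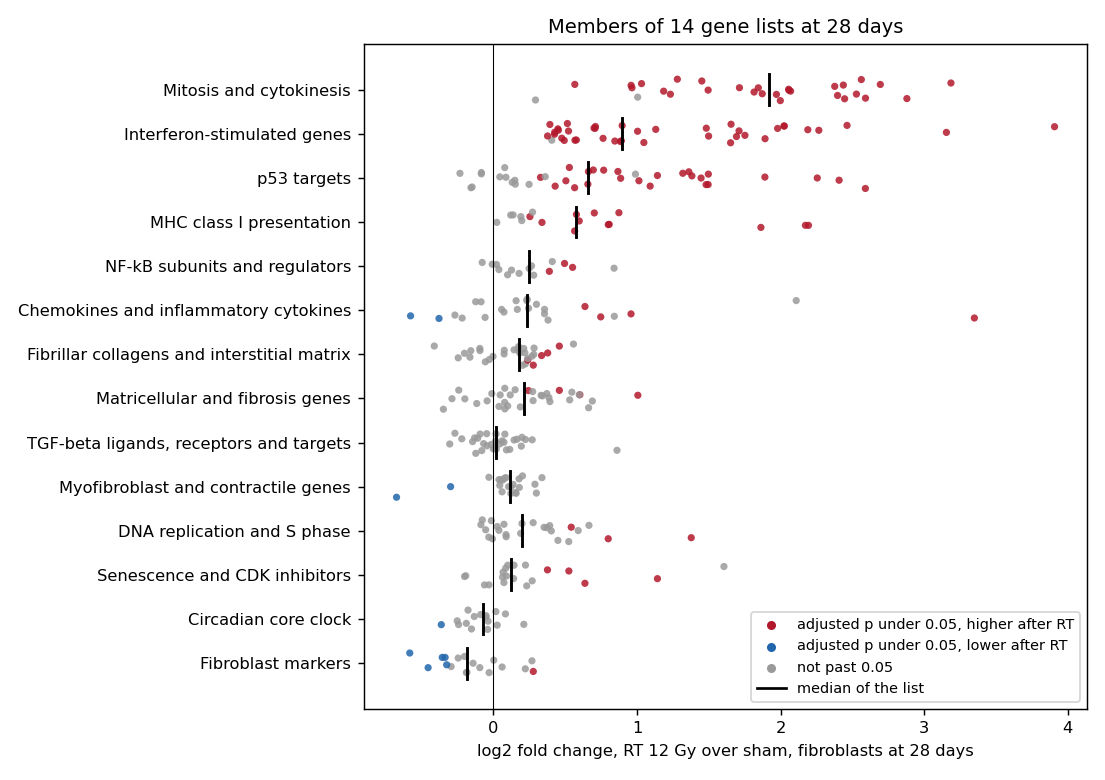
Log2 fold change, RT 12 Gy over sham, of each tested member of 14 gene lists in fibroblasts at 28 days; red and blue points passed an adjusted p of 0.05 and black bars are list medians. The medians of mitosis (1.92), interferon-stimulated genes (0.89) and p53 targets (0.66) stand right of 0, those of the TGF-beta list (0.02) and myofibroblast list (0.11) near it, and that of the fibroblast markers (-0.19) left of it.

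Inflammatory genes changed in part. Of 24 chemokines and inflammatory cytokines tested, 4 rose and 2 fell, with a median of 0.23. Ccl2, the main monocyte chemokine, had 49.7 and 38.5 CPM after RT, against 25.2 and 20.3 CPM after sham (log2 fold change 0.96, SE 0.15, adjusted p = 0.00201). Cx3cl1 (fractalkine) had 27.9 and 26.4 CPM after RT, against 18.7 and 16.3 CPM after sham (log2 fold change 0.64, SE 0.12, adjusted p = 0.00526). The eosinophil chemokine Ccl11 fell to 26.6 and 23 CPM after RT, against 36.5 and 37.5 CPM after sham (log2 fold change -0.58, SE 0.14, adjusted p = 0.0396). Cxcl14, a chemokine of many epithelia and fibroblasts, fell to 221 and 219 CPM, against 292 and 281 CPM (log2 fold change -0.38, SE 0.08, adjusted p = 0.0207). Il6 had 22 and 20.9 CPM after RT and 26.1 and 20.8 CPM after sham, and its groups overlapped (adjusted p = 0.733). Ccl5, a T cell chemokine, had 34 and 20 reads after RT and 3 and 2 reads after sham (adjusted p = 0.0248). Without irradiated library 1 the count of higher genes was 1 and without sham library 1 it was 2. The calls of Ccl2 and Cx3cl1 were lost without sham library 2, where their adjusted p was 0.062 and 0.12, and those of Ccl11 and Cxcl14 when any of the 4 libraries was left out.

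Complement had 2 higher genes of 18 tested. C4b, the fourth component, had 705 and 663 CPM after RT, against 423 and 402 CPM after sham (log2 fold change 0.73, SE 0.07, adjusted p = 1.34e-05). Cfb, factor B of the alternative pathway, had 82.9 and 74.4 CPM after RT, against 39.1 and 43.3 CPM after sham (log2 fold change 0.93, SE 0.15, adjusted p = 0.00167). Of 15 NF-kB subunits and regulators, 3 rose, Nfkb2, Relb and Nfkbie, with log2 fold changes of 0.39, 0.49 and 0.55. Nfkb2 and Relb form the dimer of the noncanonical pathway. None of the 3 was called without sham library 2, and 1 without any other of the 4 libraries. Of genes outside the lists, named with their values known, Gas6, which bridges dying cells to the TAM receptors of the cells that engulf them, was 2.04-fold its sham level, with 1059 and 1072 CPM after RT, against 541 and 504 CPM after sham (log2 fold change 1.03, SE 0.06, adjusted p = 4.18e-07). Its receptor Axl went the other way, with 1615 and 1697 CPM after RT and 2275 and 2195 CPM after sham (log2 fold change -0.43, SE 0.06, adjusted p = 0.000649). Cd80, a costimulatory ligand of T cells, had 20.2 and 18.4 CPM after RT, against 6.47 and 4.71 CPM after sham (log2 fold change 1.8, SE 0.16, adjusted p = 1.24e-05).

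Matrix genes shifted by small amounts. Of 30 genes of fibrillar collagens and interstitial matrix, 5 rose and none fell, with a median log2 fold change of 0.18. At an unadjusted p under 0.05, 14 were higher and 4 lower, and DESeq2 called 9 and limma 2. Both irradiated libraries were above both sham libraries in 18 and below them in 6, against 22.2% and 21.9% of all genes tested. Fn1 (fibronectin) had 1005 and 1110 CPM after RT, against 774 and 765 CPM after sham (log2 fold change 0.46, SE 0.11, adjusted p = 0.0259). Col1a1, the main chain of type I collagen, had 5867 and 6538 CPM after RT, against 5217 and 5018 CPM after sham (log2 fold change 0.28, SE 0.07, adjusted p = 0.0467). Col16a1 and Col5a2, minor chains associated with collagen fibrils, had log2 fold changes of 0.34 and 0.24. Col3a1, type III collagen, had 12123 and 12356 CPM after RT and 10210 and 10118 CPM after sham with no overlap, but did not pass (adjusted p = 0.132). The 30 genes together summed to 63957 and 66301 CPM after RT and 61360 and 60700 CPM after sham, inside the range of 55455 to 64857 CPM of all 6 sham fibroblast libraries except for irradiated library 2. None of the 30 was called without irradiated library 2, without sham library 2 or in the fit of all 36 libraries, 1 without sham library 1 and 9 without irradiated library 1.

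Of 32 matricellular and fibrosis genes, 4 rose and none fell, with a median of 0.22. At an unadjusted p under 0.05, 15 were higher and 3 lower, and DESeq2 called 6 and limma 3. Tnc (tenascin C), an adhesion-modulating protein of healing tissue, had 38.5 and 43.9 CPM after RT, against 22.9 and 18.3 CPM after sham (log2 fold change 1.01, SE 0.15, adjusted p = 0.000865). Postn (periostin) had 785 and 794 CPM after RT, against 540.2 and 500.0 CPM after sham (log2 fold change 0.6, SE 0.11, adjusted p = 0.00589); without sham library 2 its adjusted p was 0.1. Wisp2 (CCN5) had 94.8 and 97.1 CPM after RT, against 72.2 and 67.5 CPM after sham (log2 fold change 0.46, SE 0.06, adjusted p = 0.000446). Tnc was the one of these at over 2-fold its sham level. Ctgf (CCN2) had 852 and 943 CPM after RT and 719 and 647 CPM after sham and did not pass (adjusted p = 0.113). The matricellular count was 2 without sham library 2 and 0 in the fit of all 36 libraries. Of 24 matrix metalloproteinases and inhibitors tested, 3 rose: Mmp2, a gelatinase, with 2292 and 2335 CPM after RT, against 1765 and 1660 CPM after sham (log2 fold change 0.43, SE 0.06, adjusted p = 0.000372), and the proteinases Adamts8 and Adamts2 (log2 fold changes 1.12 and 0.27). Of 20 basement membrane genes, Agrn and Col18a1 rose (0.46 and 0.46) and Sparcl1 and Smoc2 fell (-0.38 and -0.33).

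The TGF-beta and myofibroblast lists held few calls. None of 31 ligands, receptors and targets of TGF-beta passed with edgeR, with a median of 0.02. At an unadjusted p under 0.05, 2 were higher and 4 lower, DESeq2 called none and limma 1. Tgfb1, the ligand most tied to fibrosis, had 52.5 and 56.1 CPM after RT and 56.7 and 48.7 CPM after sham, and its groups overlapped (log2 fold change 0.04, SE 0.11). The members with the smallest p were Bmp2 (log2 fold change -0.3, adjusted p = 0.104) and Ltbp3 (0.2, adjusted p = 0.124). Of 22 myofibroblast and contractile genes, 2 fell and none rose. The median was 0.11, with 19 of the 22 above 0, and at an unadjusted p under 0.05 there were 3 higher and 2 lower. Fap, a surface protease of activated fibroblasts, fell to 38.3 and 39.1 CPM after RT, against 59.9 and 63.7 CPM after sham (log2 fold change -0.67, SE 0.07, adjusted p = 4.14e-05). Itga11, a collagen-binding integrin, fell to 103 and 117 CPM, against 142 and 128 CPM (log2 fold change -0.3, SE 0.08, adjusted p = 0.0471), a call lost without sham library 1, sham library 2 or irradiated library 1. Acta2, the smooth muscle actin of myofibroblasts, had 392 and 348 CPM after RT and 324 and 329.8 CPM after sham (adjusted p = 0.395).

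The lower genes included markers of resident fibroblasts. Of 18 fibroblast markers, 5 fell and 1, Col1a1, rose, with a median of -0.19. Pi16, a marker of adventitial fibroblasts, fell to 1274 and 1223 CPM after RT, against 1950 and 1790 CPM after sham (log2 fold change -0.58, SE 0.07, adjusted p = 0.000303). Pdgfra, a PDGF receptor used to mark cardiac fibroblasts, fell to 772 and 858 CPM, against 1090 and 1145 CPM (log2 fold change -0.46, SE 0.06, adjusted p = 0.000697). Dpep1, Htra3 and Smoc2 had log2 fold changes of -0.34, -0.36 and -0.33. The level after RT was 0.668 times the sham level in Pi16 and 0.73 times in Pdgfra, and both calls stood without any single library of the 4; those of Dpep1, Htra3 and Smoc2 were each lost when any of the 4 was left out, leaving 2 markers called. Tcf21, a transcription factor of the lineage, had 162 and 159 CPM after RT and 159 and 148 CPM after sham (adjusted p = 0.837). In bulk libraries a smaller share of one fibroblast type and less RNA of a gene per cell cannot be told apart. In endothelial cells at 28 days, 8 of these 18 markers were also called lower and 1 higher, where 7.57% of all genes were called lower. None of the 18 passed the test of the difference between the 2 cell types.

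Of 30 genes of PDGF, FGF and VEGF signalling, 4 fell and 2 rose, the higher calls being lost without sham library 1 or irradiated library 2. Pgf (placental growth factor) fell to 53.5 and 53.2 CPM after RT, against 93.7 and 83.1 CPM after sham (log2 fold change -0.73, SE 0.09, adjusted p = 0.000231). Angptl1, an angiopoietin-like protein, fell to 31.2 and 31.1 CPM, against 52.4 and 51.4 CPM (log2 fold change -0.74, SE 0.08, adjusted p = 4.56e-05). Fgf18, a growth factor of the FGF family, fell to 22 and 23 CPM, against 31.6 and 29.7 CPM (log2 fold change -0.45, SE 0.08, adjusted p = 0.00526). The groups did not overlap for these genes. Outside that list, Avpr1a, the vasopressin receptor, had 10.8 and 11.5 CPM after RT and 17.9 and 18.6 CPM after sham (log2 fold change -0.71, SE 0.12, adjusted p = 0.00238). Cd83, a surface protein best known from dendritic cells, fell to 16.1 and 17.6 CPM after RT, against 31.8 and 32 CPM after sham (log2 fold change -0.92, SE 0.08, adjusted p = 6.04e-06). Inmt, a methyltransferase of small amines, fell to 57.3 and 57.1 CPM, against 91.8 and 91.9 CPM (log2 fold change -0.68, SE 0.1, adjusted p = 0.00065). Of 28 Wnt modulators and targets, the secreted inhibitors Sfrp2 and Frzb rose (0.42 and 0.45) and Wnt11 fell (-0.51), and the calls of Sfrp2 and Frzb were lost without sham library 1, sham library 2 or irradiated library 2. That of Wnt11 was lost without sham library 1 or either irradiated library.

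Among called genes over 5 CPM, the lowest log2 fold changes were those of the beta globins, and 2 of 6 erythroid markers tested passed. Hbb-bs, a beta globin, had 90.1 and 189 CPM after RT, against 657 and 412 CPM after sham (log2 fold change -1.94, SE 0.47, adjusted p = 0.0361), and Hbb-bt 12.3 and 20.9 CPM, against 90.3 and 57.2 CPM (log2 fold change -2.15, SE 0.44, adjusted p = 0.0126). Sham libraries of other times held less Hbb-bs, with 149 and 290 CPM at 6 hours and 73.1 and 92.2 CPM at 7 days. The irradiated libraries of 28 days lay within that range. In endothelial cells at 28 days, 2 of 6 erythroid markers were also called lower after RT, with a median log2 fold change of -1.35. None of the 6 passed the test of the difference between cell types. The gene names Hbb-b1 and Hbb-b2 carried the same counts as Hbb-bs and Hbb-bt and are not separate results. Bpgm, a red cell enzyme, had 12.9 and 14.8 CPM after RT and 21.7 and 19.3 CPM after sham (log2 fold change -0.57, SE 0.13, adjusted p = 0.0282). Each group's 2 libraries differed by over 1.5 times from each other in Hbb-bs, and its call was lost without sham library 1, sham library 2 or irradiated library 1. Without irradiated library 2 the erythroid count was 4. The part of blood in any other change was not tested. With hemoglobin and ribosomal RNA genes left out of the library sizes 483 genes were called. That setting only rescales the libraries, in which hemoglobin took at most 0.246% of reads. It removes no blood transcript from the test, so it cannot show the part of blood.

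Few genes passed in lists of metabolism. Among them Lpl, which releases fatty acids from blood lipids, had 1068 and 1059 CPM after RT and 1256 and 1303 CPM after sham (log2 fold change -0.27, SE 0.06, adjusted p = 0.0269), and Insig1, which restrains cholesterol synthesis, 63.8 and 63.5 CPM, against 77 and 75.1 CPM (log2 fold change -0.26, SE 0.06, adjusted p = 0.0264). Neither call held without sham library 1. With edgeR no gene passed in the lists of immediate-early genes (25 tested), heat shock (26), nuclear-encoded oxidative phosphorylation (27), hypoxia and glycolysis (24), Notch (18), NRF2 (22), retinoids (20), glucocorticoid response (19) and wound and neurohormone receptors (24). At an unadjusted p under 0.05 these lists held between 0 and 6 genes each, DESeq2 called 1 wound receptor gene and limma 1 retinoid gene. Of 16 core clock genes only Nr1d2, a repressor in the clock loop, passed (88.6 and 92.7 CPM after RT, against 118 and 115 CPM after sham, log2 fold change -0.36, SE 0.08, adjusted p = 0.0159), a call lost when any of the 4 libraries was left out. A lack of calls with 2 libraries a group does not show that these genes were level.

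Against 7 days, mitosis and interferon genes set the 28-day effect apart. The test of the difference between the effects called 59 genes (0.393%), of which 57 (0.38%) had a higher and 2 (0.0133%) a lower effect at 28 days. Of the 30 mitosis genes 18 were among them, and of the 40 interferon-stimulated genes 9. At 7 days, where 1.51% of genes were called higher and 0.327% lower, no mitosis gene had passed with edgeR and 2 were lower at an unadjusted p under 0.05, with a median log2 fold change of -0.16, while 8 interferon-stimulated genes had risen. Irf7 had 25.3 and 31.2 CPM in irradiated and 21.4 and 17.2 CPM in sham libraries at 7 days, and its effect differed by 1.43 on the log2 scale (SE 0.15, adjusted p = 0.000892). Mki67 had 5.11 and 4.53 CPM in irradiated and 6.02 and 4.71 CPM in sham libraries there, a difference of 2.6 (SE 0.31, adjusted p = 0.00172). The sham levels of both genes at 28 days were near or below those at 7 days. Apod, a lipid-binding lipocalin, had the smallest p of this test: it was higher after RT at 28 days (133 and 131 CPM, against 55 and 56.1 CPM after sham) and had 36.1 and 37.9 CPM after RT and 49.3 and 45.8 CPM after sham at 7 days, a difference of 1.61 (SE 0.09, adjusted p = 1.39e-06). Racgap1, which directs the cleavage furrow, and Ccna2 differed by 2.19 and 1.39, and Usp18 by 1.35. Of the p53 targets 1, Ckap2, differed. Ngfr differed by 1.22 (adjusted p = 0.0212). The count of 59 was 71 without sham library 2 of 7 days, with only 69% of them higher at 28 days, against 96.6% of the 59, and it was between 19 (without sham library 1 of 7 days) and 35 without any other of the 8 libraries.

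Among the genes higher at 28 days, 106 were also called higher at 7 days, which is 28.5% of the 28-day genes and 46.7% of the 227 genes of 7 days. With 6 hours the shared number was 187, or 50.3% of the 28-day genes and 10.1% of the 1843 of 6 hours. Each time had its own sham libraries.

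Against 6 hours, the test of the difference called 1525 genes (10.2%), 785 with a higher (5.23%) and 740 with a lower effect (4.93%) at 28 days. Of the 39 p53 targets, 31 had a lower effect at 28 days and 1 a higher one; at 6 hours, where 12.3% of all genes were called higher and 12.3% lower, 34 had risen with a median of 1.93. Cdkn1a had 1196 and 1187 CPM in irradiated and 161 and 151 CPM in sham libraries at 6 hours, and its effect at 28 days differed from that by -1.79 on the log2 scale (SE 0.11, adjusted p = 3.89e-07). Ccng1 and Aen differed by -1.95 and -1.63. Of the mitosis genes 26 had a higher effect at 28 days, where 7 had fallen at 6 hours. Of the 30 matrix genes 20 had a higher effect at 28 days, where 15 had fallen at 6 hours, among them Col1a1 with 4504 and 4695 CPM in irradiated and 5216 and 5726 CPM in sham libraries.

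Other genes set 6 hours apart. Rdh10, an enzyme of retinoic acid synthesis, had the smallest p, with 22.5 and 21.8 CPM in irradiated and 24.8 and 26 CPM in sham libraries at 28 days, and 102 and 105 CPM in irradiated and 25.9 and 26.4 CPM in sham libraries at 6 hours (difference -2.18, SE 0.09). Wisp2, higher after RT at 28 days, had 47.1 and 49.1 CPM after RT and 103 and 106 CPM after sham at 6 hours, a difference of 1.58 (SE 0.09). Of the interferon-stimulated genes 26 rose at 6 hours, and 14 had a higher and 2 a lower effect at 28 days. The GTPases, 16 of which rose at 6 hours, had a median log2 fold change of 0.9 at 28 days and 1.52 at 6 hours, and their effect was higher at 28 days in 1 and lower in 7. Of the MHC class I genes 15 rose at 6 hours, and the effect at 28 days was higher in 2 and lower in 2, one of the lower being Tap1, with a difference of -0.72 (adjusted p = 0.000788). The count of 1525 was 868 without sham library 1 of 28 days, 919 without sham library 2 and 935 without irradiated library 2.

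**Figure D4:**
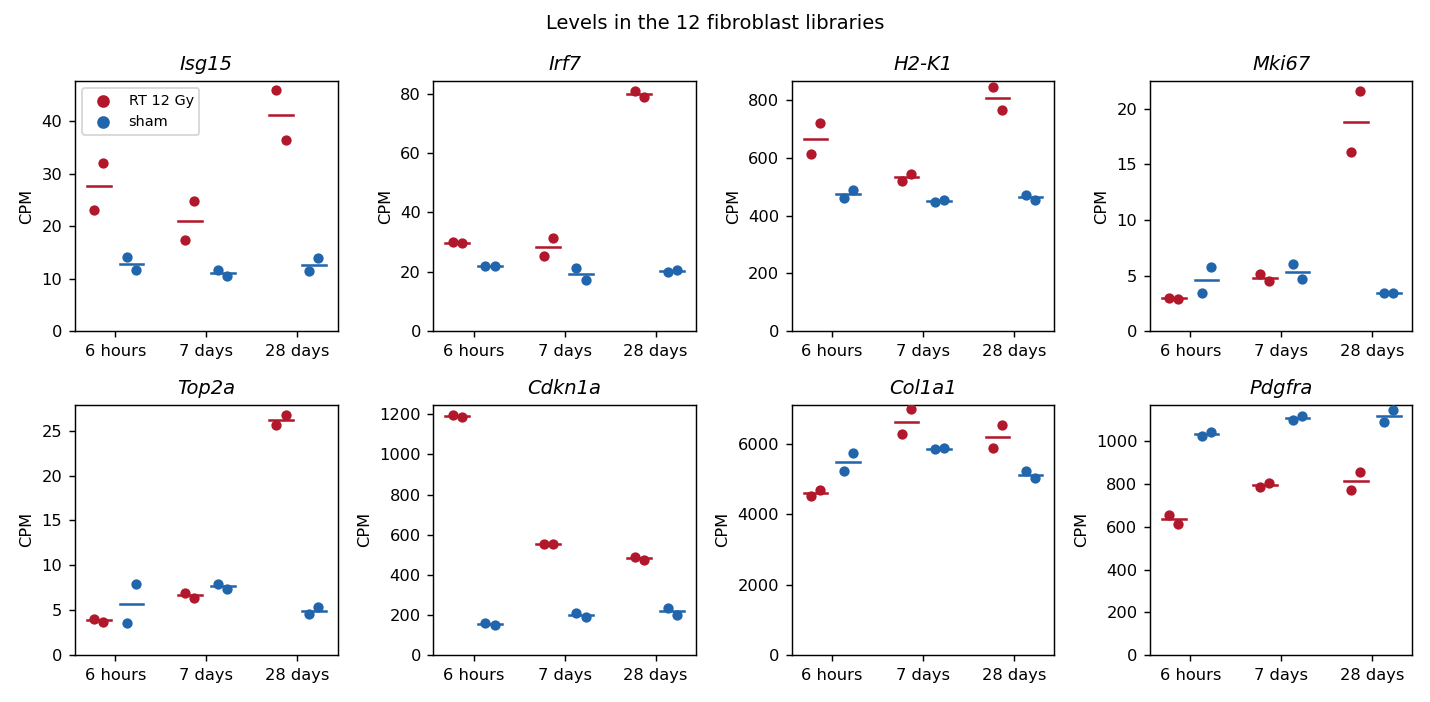
CPM of 8 genes in each of the 12 fibroblast libraries at 6 hours, 7 days and 28 days, irradiated (red) left of sham (blue), with bars at the mean of 2 libraries. Mki67 and Top2a stand above sham at 28 days and not at the earlier times, Irf7 is highest after RT at 28 days, Cdkn1a is highest after RT at 6 hours, and Pdgfra is below sham at each time.

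The same 28 days in endothelial cells gave a partly different picture. With 24 libraries of both cell types in the fit, the test of the difference between the effects called 289 of 15674 genes (1.84%), 155 with a higher (0.989%) and 134 with a lower effect (0.855%) in fibroblasts. Interferon-stimulated genes had a higher effect in fibroblasts in 15 of 40 cases and a lower one in 1, and their median log2 fold change was 0.89 in fibroblasts and 0.37 in endothelial cells. They also rose in endothelial cells, where 21 of the 40 were called higher and 1 lower after RT. Of all genes tested there, 8.24% were called higher and 7.57% lower. MHC class I genes had a higher effect in 7 of 18 and the GTPases in 11 of 18, with none lower in either. Oas2 had a log2 fold change of 2.19 in fibroblasts and -0.28 in endothelial cells (difference 2.47, SE 0.34, adjusted p = 0.000506). Gbp9 had 1.04 in fibroblasts and -0.04 in endothelial cells (difference 1.09, SE 0.15, adjusted p = 0.000506). Sham fibroblast libraries held 1217 to 1338 CPM of interferon-stimulated transcripts and sham endothelial libraries 2688 to 3159 CPM.

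No mitosis gene of the 30 passed the test of the difference between cell types with edgeR, 7 were under an unadjusted p of 0.05, DESeq2 called 3 and limma 4. The list's median was 1.92 in fibroblasts and 1.68 in endothelial cells, where all 30 rose and 8.24% of genes tested were called higher and 7.57% lower. The p53 targets had a lower effect in fibroblasts in 12 of 39 cases and a higher one in 1. Phlda3, which restrains AKT, had a log2 fold change of 0.57 in fibroblasts and 1.98 in endothelial cells (difference -1.42, SE 0.11, adjusted p = 4.19e-07). Zmat3, an RNA-binding target of p53, and Zfp365, a zinc-finger gene tied to genome stability, differed by -1.61 and -2.52. Ccnd1 (cyclin D1) rose in both, by 0.38 in fibroblasts and 1.62 in endothelial cells (difference -1.24). Pgf went in opposite directions, with -0.73 in fibroblasts and 1.03 in endothelial cells (difference -1.75, SE 0.15). Xdh, xanthine dehydrogenase, had 0.12 in fibroblasts and -1.39 in endothelial cells (difference 1.51). The count of 289 rests on single libraries: it was 1187 without irradiated endothelial library 1, and between 81 and 178 without any other of the 8 libraries of 28 days. In the higher direction, 212 genes were called in both cell types, which is 57% of the fibroblast and 16.4% of the endothelial genes.

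**Figure D5:**
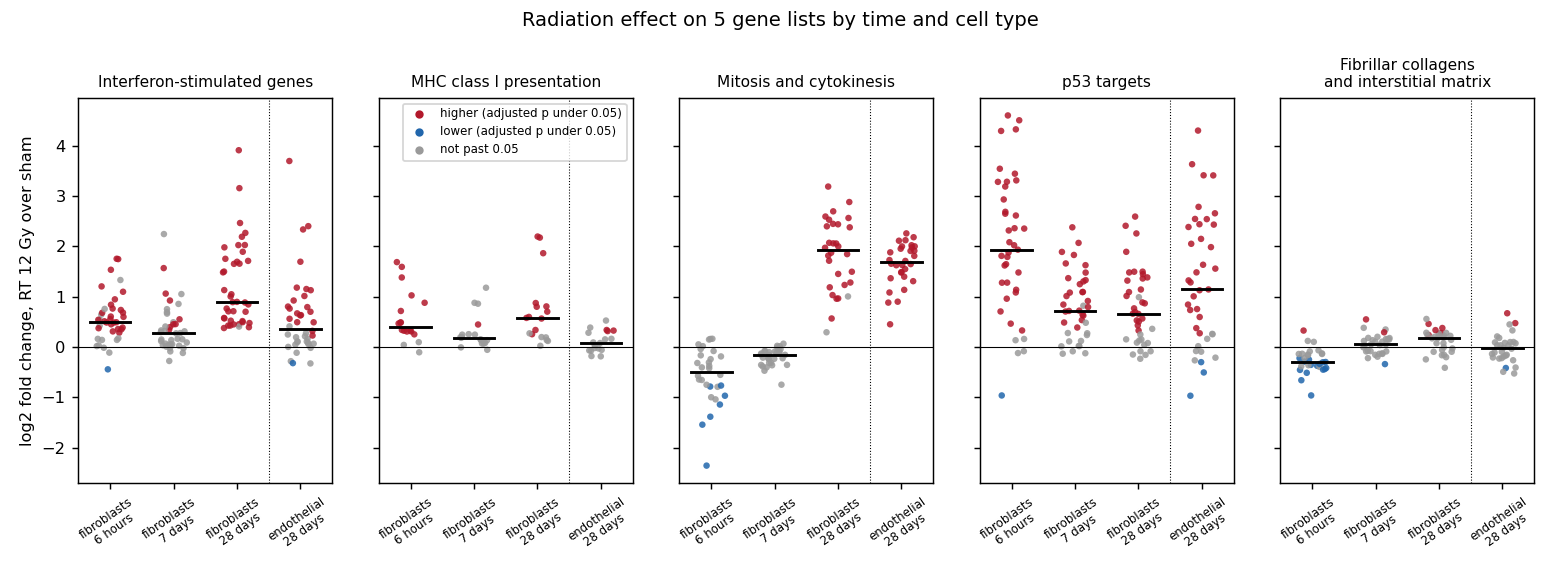
Log2 fold change, RT 12 Gy over sham, of the members of 5 gene lists in fibroblasts at 6 hours, 7 days and 28 days and in endothelial cells at 28 days; red and blue points passed an adjusted p of 0.05 and black bars are medians. The mitosis list sits at -0.49 and -0.16 at the early times and at 1.92 at 28 days, while the p53 list is highest at 6 hours (1.93).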

How the data were processed

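Each library has a deposited table of 33068 RefSeq transcripts with read counts and RPKM; its column headed TPM equals the RPKM to within 1.8e-12. Reads came, per the labels' protocols, from an RNeasy extraction and SMARTER mRNA-seq libraries and were mapped by the authors to GRCm38, per the submitters' processing notes. The aligner and counter were not given in the sources used here. Each library's own read counts, as deposited, were used, and 30 read columns of other libraries in the files were not. For each of 24061 gene names the transcript with most reads over 36 libraries was kept, so reads of other isoforms of 4914 names are left out.

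Counts were scaled by TMM, filtered with filterByExpr (minimum count 10, total 15) and tested with edgeR 4.0.16 in R 4.3.3 (quasi-likelihood test, Benjamini-Hochberg adjustment over all genes tested) in 1 fit of the 12 fibroblast libraries, or of 24 with the endothelial ones; the 28-day test in the first fit was also run on simulated counts. The biological coefficient of variation was 0.068. CPM values use TMM-scaled library sizes, taken over the 12 libraries for single genes and over 36 for sums over lists. Alternatives used DESeq2 1.42.0, limma 3.58.1 on log2(RPKM + 1) of the authors' RPKM values, other filters, and left-out libraries.

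Members and gene lists were chosen with earlier results of these data known, and the lists of GTPases, sensors, ligands and promoter motifs were added after values were seen. Genes were named by rule: the 12 largest changes each way among called genes with a mean of at least 5 CPM, up to 4 per list, 18 fixed genes, and 6 per difference test; the remaining genes named are members of the lists or genes said to lie outside them, chosen with their values known. Some genes that the rule or the lists include are not reported here. Deviations of same-numbered irradiated and sham fibroblast libraries were nearly uncorrelated (0.01, -0.011 and 0.086 at 6 hours, 7 days and 28 days). These correlations cannot exclude that equal numbers pair libraries, and none was taken between cell types. Promoters are from RefSeq GRCm38.p6, and not all motifs searched in them are reported here.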

Additional observations from a re-analysis of the deposited data

Results flagged for a closer look

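The radiation effect differed between 28 days and 7 days in 6 named genes, by a test of the difference itself (edgeR's quasi-likelihood test). All were higher at 28 days relative to their effect at 7 days. On the log2 scale the difference was 1.613 for Apod, 1.429 for Irf7, 2.187 for Racgap1, 2.604 for Mki67, 1.387 for Ccna2 and 1.345 for Usp18.

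The effect at 28 days also differed from that at 6 hours by the same kind of test. It was smaller at 28 days in Rdh10 (difference -2.182), Ccng1 (-1.949), Aen (-1.634) and Cdkn1a (-1.788), and higher in Wisp2 (1.581) and Apod (1.6). The effect in Apod at 28 days differed from that at both earlier times.

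Between fibroblasts and endothelial cells at 28 days, the effect in fibroblasts was lower for Zfp365 (difference -2.519), Phlda3 (-1.415), Pgf (-1.75), Zmat3 (-1.613) and Ccnd1 (-1.242), and higher for Xdh (1.515). In each case the test of the difference passed an adjusted p of 0.05.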

How the results depend on the processing

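The direction of the 494 genes called held in every setting in which they were tested. That was close to fixed in advance, because the groups did not overlap in any of them. Each setting also drew on the same libraries of 28 days. The number called was 929 (648 higher, 281 lower) with no filter beyond 1 read and 188 (178 higher, 10 lower) with the spread taken over all 36 libraries, of which 182 were among the 494. Limma on log2(RPKM + 1) called 60 genes lower. Without 1 library of 28 days the calls ranged between 229 and 416 (197 to 289 higher, 32 to 127 lower), with a group left at 1 library that is assumed to vary like the others. For 28 days against 7 days the number was 223 with no filter (67.3% of them higher at 28 days), 21 with a filter at a mean of 5 CPM, and 19 to 71 without 1 library; against 6 hours it was 868 to 1701 without 1 library. For fibroblasts against endothelial cells it was 820 with no filter, 555 with DESeq2, 453 with limma, 46 in the fit of all 36 libraries, and 81 to 1187 without 1 library. The cause was not tested, except that a filter removes or adds genes by construction. With the replicate number as a block across all libraries or within each time, 584 or 570 genes were called at 28 days (411 or 410 higher, 173 or 160 lower). In the same settings 63 or 66 differed from 7 days, 1764 or 1614 from 6 hours, and 281 or 203 between cell types. The labels do not say whether equal numbers pair libraries, and pairing between cell types was not tested. Of named genes' adjusted p under the alternatives, 1697 stayed on their side of the threshold with the same sign, 230 lost it and 22 passed it newly. Il6 (log2 fold change 0.04, adjusted p = 0.957, edgeR) without sham library 1 and Tgfb1 (-0.063, adjusted p = 0.93, edgeR) without sham library 2 turned sign, neither being called; without any 1 library their adjusted p ranged between 0.549 and 0.957 (Il6) and between 0.748 and 0.999 (Tgfb1).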
